A study of Mus musculus with 79 samples.

Results

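Macrophages sorted from the regenerative bridge 14 days after nerve repair were compared between delayed and immediate repair across all genes. The comparison took every macrophage library that the labels assign to day 14, which gave 15 libraries from 15 mice, 7 after delayed repair (4 males and 3 females) and 8 after immediate repair (4 males and 4 females), out of 32 macrophage libraries and 79 libraries in the series. Each library came from 1 mouse, bridges were not pooled, and the animals are named here by their replicate number in the labels, such as delayed 3 or immediate 7.

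By the paper's Results, all mice carried the S100β-eGFP transgene, in which the S100β promoter drives the green fluorescent protein that marks Schwann cells. One supplementary caption of the paper calls the animals of this sequencing wild type (WT). The tibial nerve was cut and its stump was joined inside a silicone tube to the freshly cut end of the common peroneal nerve, either at once or 8 weeks after the tibial injury. Mice of the immediate group had a sham exposure of the nerve 8 weeks before their repair, so both groups had surgery at both times. The bridge that formed in the tube was digested, and cells positive for F4/80, CD14, CD16/32 and CD11b and negative for markers of granulocytes, lymphocytes, endothelium and erythroid cells and for Thy1.2, used against fibroblasts, were sorted, with 1000 cells per library. The sort defines the cells by surface protein, and resident macrophages and macrophages derived from recent monocytes were not separated. The line came from Jackson Laboratories and was bred in-house, and the age of the mice is not given in the sources used here.

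Macrophages fill the gap between nerve stumps after transection. They clear myelin and axon debris by phagocytosis, respond to low oxygen by releasing factors that draw in blood vessels along which Schwann cells migrate, and move over time from an inflammatory state, with cytokines such as IL-1β and TNF, towards a state with IL-10, TGF-β and tissue repair genes. Interferon response genes, which are induced when interferons bind their receptors, form a separate program that macrophages switch on together.

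Library totals ran from 17624676 to 27972884 counts after delayed repair and from 15751765 to 22723959 after immediate repair, with medians of 21394015 and 18154208 (2-sided exact permutation test, p = 0.0612). The sorting markers were abundant in every library: in CPM, a gene's count relative to its library's total after scaling by the trimmed mean of M-values, Cd14 ran from 4293 to 7822, Emr1, the gene of F4/80, from 793 to 1539, and Itgam, the gene of CD11b, from 388 to 562. The summed level of 15 macrophage markers was 32039 to 43214 CPM after delayed and 31359 to 42917 CPM after immediate repair. Of 10 neuron markers, 6 were at 0 in every library, and the sums of the neuron, mast cell and skeletal muscle lists stayed at or under 5.37 CPM. Other lists were higher in both groups: the summed level was 573 to 919 CPM for 14 Schwann cell markers, with Ngfr at 0 in every library, 81.7 to 325 CPM for neutrophil, 133 to 328 CPM for adipocyte and 135 to 315 CPM for dendritic cell markers. Only 2, 4, 2 and 3 genes of these lists reached the filter of the test and none was called, Plin1 and Lep of the adipocyte list were at 0 in every library. The part of these cell types in the results was not tested. The library of immediate 7 had 1377 CPM over 14 fibroblast markers against at most 259 CPM in any delayed library, and the library of immediate 4 had 91.5 CPM over 8 erythroid markers against at most 0.971 CPM in any delayed library. Xist, expressed from the inactive X chromosome, was 46.6 to 103 CPM in the females and 0 to 0.113 CPM in the males, so by this gene the labels of sex held in every library. Eif2s3y, on the Y chromosome, was 44.7 to 60.9 CPM in the males and 0 to 1.70 CPM in the females, highest in immediate 5.

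No gene passed the test of delayed against immediate repair at day 14. Of 8589 genes that reached 5 CPM in 6 or more animals, 0 (0%) had an adjusted p under 0.05 by edgeR's quasi-likelihood test with Benjamini-Hochberg adjustment, and DESeq2 also called 0. Without adjustment, 190 genes (2.21%) had a p under 0.05, 103 of them higher (1.2%) and 87 lower (1.01%) after delayed repair; with scaling by library size alone there were 71 higher and 108 lower. The smallest unadjusted p was 0.00128, and its adjusted value was 0.9999. The fitted log2 fold changes, delayed over immediate, lay between -0.09 and 0.09 for the middle of the genes (the first to the third quartile), with a median standard error (SE) of 0.16.

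The width of the intervals shows what this number of mice could resolve. The 95% interval of the log2 fold change lay wholly between -1 and 1 for 8139 genes (94.8%) and wholly between -0.5 and 0.5 for 5269 genes (61.3%). For these genes a change beyond the given bound lies outside the interval. Across genes the median pooled standard deviation (SD) within groups was 0.296 on the log2(CPM + 1) scale, and the median biological coefficient of variation was 0.257. A fitted log2 fold change beyond 1 in size was found for 16 genes (0.186%), and delayed animals were higher for 4329 genes (50.4%).

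**Figure D1:**
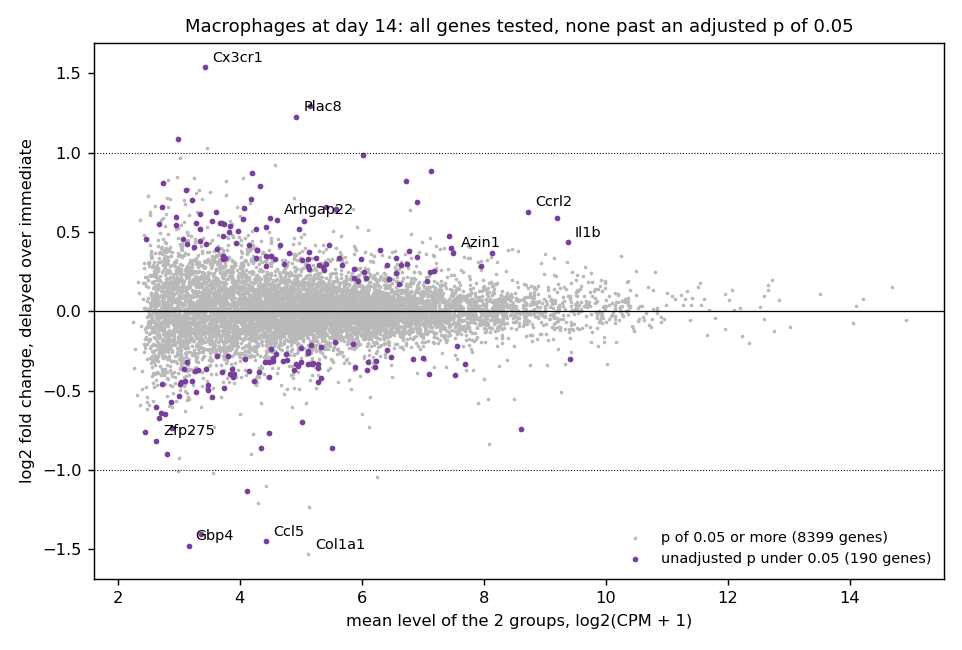
Each point is 1 of 8589 genes in macrophages at day 14. The horizontal axis is the mean level of the delayed and immediate groups on the log2(CPM + 1) scale, the vertical axis is the fitted log2 fold change, and purple marks the 190 genes at an unadjusted p under 0.05. Folds beyond 1 in size, past the dotted lines, belong to 16 genes, and 0 genes passed the adjusted threshold.

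The genes with the smallest p among those higher after delayed repair overlapped between the groups. Arhgap22 (chr14:33214026-33369934, GRCm38), which encodes a GTPase-activating protein for Rac1, had a lowest, median and highest level of 19.3, 28.8 and 38.5 CPM after delayed repair and of 15.8, 17.4 and 22.8 CPM after immediate repair. Every delayed animal was above the immediate mean, although the lowest delayed animals lay within the immediate range. Its log2 fold change was 0.58 (SE 0.15, interval 0.26 to 0.89). Azin1, the antizyme inhibitor that raises ornithine decarboxylase activity and so polyamine synthesis, was 172, 196 and 229 CPM after delayed and 128, 164 and 184 CPM after immediate repair, a log2 fold change of 0.37 (SE 0.10). The ranges shared only the stretch from 172 to 184 CPM. Ccrl2, an atypical receptor that binds chemerin, was 262, 539 and 812 CPM after delayed and 224, 320 and 498 CPM after immediate repair, a log2 fold change of 0.63 (SE 0.20). Ski, which holds back SMAD-dependent transcription in TGF-β signaling, was 13.3, 25.2 and 31.6 CPM after delayed and 6.73, 15 and 21.4 CPM after immediate repair, a log2 fold change of 0.79 (SE 0.25). In both genes 6 of 7 delayed animals were above the immediate mean. The fold was 0.70 for Lmnb2, a nuclear lamin, 0.58 for Dusp10, a phosphatase of p38 and JNK kinases, 0.52 for Gpr137 and 0.52 for Cdk18, each as log2.

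Among the genes lower after delayed repair, Zfp275, a zinc finger gene on the X chromosome, was 2.41, 3.52 and 6.15 CPM after delayed and 3.46, 6.65 and 10.5 CPM after immediate repair, a log2 fold change of -0.82 (SE 0.24). Snapc5, a subunit of the complex that starts transcription of small nuclear RNA genes, had a log2 fold change of -0.86 (SE 0.27), Lima1, an actin-binding protein, of -0.42 (SE 0.13), Rras, a small GTPase, of -0.31 (SE 0.10) and Peli1, a ubiquitin ligase of Toll-like receptor signaling, of -0.40 (SE 0.14). In each of these no delayed animal was above the immediate mean. Ccl5, a chemokine for T cells and monocytes, was 2.79, 10.1 and 21.5 CPM after delayed and 6.52, 22.3 and 94.0 CPM after immediate repair, a log2 fold change of -1.45 (SE 0.46). The highest value was in immediate 6, and without that animal the log2 fold change of Ccl5 was -0.93.

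**Figure D2:**
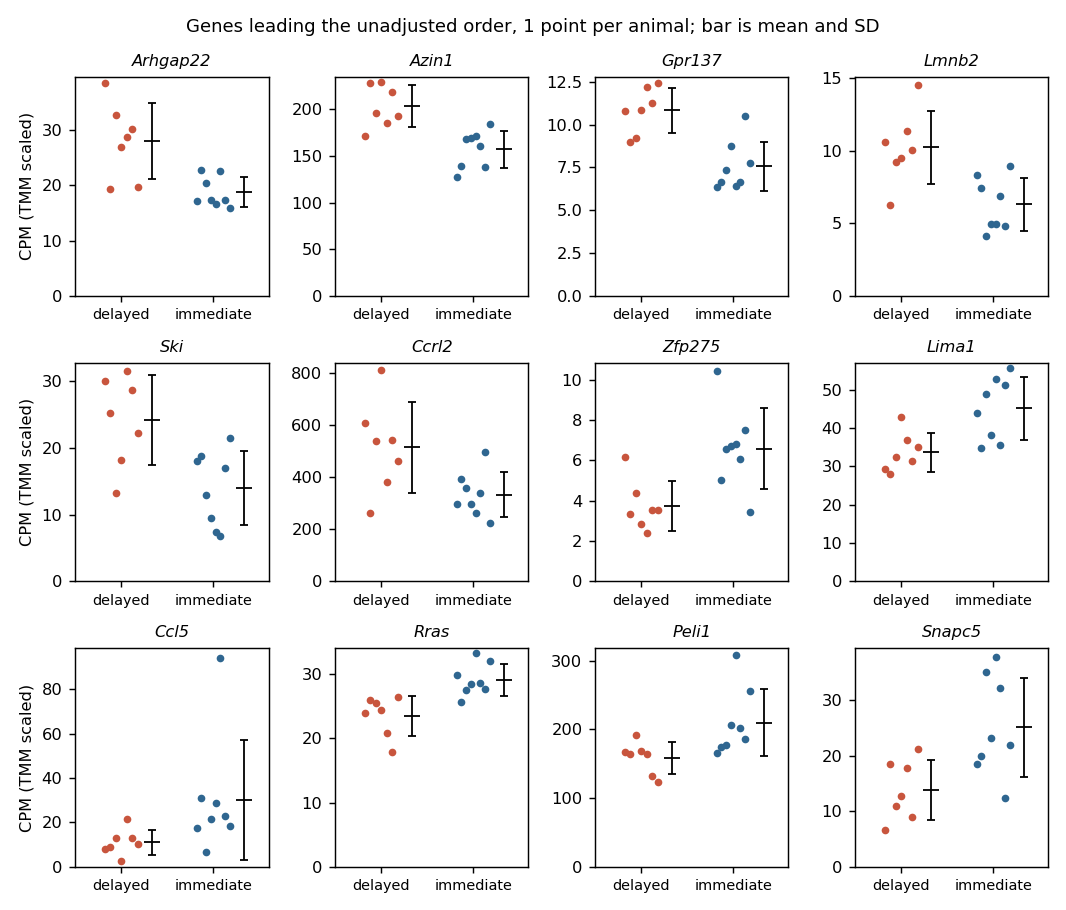
Levels of 12 genes in CPM scaled by the trimmed mean of M-values, on linear axes from 0, with 1 point per animal (7 delayed in red, 8 immediate in blue) and a bar for the mean and SD. The groups overlap in each panel, as for Azin1, where the lowest delayed animal is at 172 CPM and the highest immediate animal at 184 CPM.

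The largest fitted folds came with wide ranges within groups. Cx3cr1, the fractalkine receptor of monocytes and resident macrophages, had the highest fold, a log2 fold change of 1.54 (SE 0.62), from levels of 1.59, 9.51 and 35.7 CPM after delayed and 1.12, 3.92 and 15.1 CPM after immediate repair. The ranges overlapped over most of the immediate animals, and with any 1 animal left out the value was 1.14 to 2.05. Other large folds rested on 1 animal. Plac8, a gene of circulating monocytes, had a log2 fold change of 1.23 (SE 0.53) with 136 CPM in delayed 3, and 0.52 without that animal. Hdc, the enzyme that makes histamine, had 1.08 (SE 0.40) with 28.9 CPM in delayed 8, and 0.46 without it. Arrdc3, an arrestin domain gene, had 1.29 (SE 0.57) with 216 CPM in delayed 4 against 27.9 CPM in the highest immediate animal, and 0.07 without delayed 4. In the other direction, Col1a1, a fibrillar collagen chain of fibroblasts, had the lowest fold, -1.53 (SE 0.87), with 318 CPM in immediate 7, the library with the high fibroblast markers. Without immediate 7 the value for Col1a1 was 0.54, which turned its direction, and with DESeq2 it was 0.53.

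Gene groups were then read list by list. Over 27 lists, 0 held a gene past the adjusted threshold. In 5 of them, IL-10 signaling, Fc gamma receptors, lipid handling, the lysosome and oxidative phosphorylation, the interval of each tested member lay between -1 and 1. The sign of a list's median turned for 17 of the 27 lists when 1 animal was left out, so the directions given below are those of these 15 animals together. In bulk libraries fewer cells of a type and less RNA per cell cannot be told apart, so list values describe the sorted population.

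Of 31 inflammatory mediators tested, 22 were higher in the delayed animals, and their median was 0.11 on the log2 scale (0.06 without delayed 1) against 0.0015 over all genes. An unadjusted p under 0.05 was found for 4, all higher (1.2% of all genes). Among them were Il1b, the cytokine IL-1β, at 0.44 (SE 0.18), and Osm, the IL-6 family cytokine oncostatin M, at 0.38 (SE 0.18). Zc3h12a, an RNase that degrades cytokine transcripts, was another, at 0.29 (SE 0.12). Tgfb1, taken with the growth factors below, was at 0.29 (SE 0.12). It was 73.9, 113 and 124 CPM after delayed and 73.6, 87.4 and 112 CPM after immediate repair, so the lowest animals of both groups were alike. Osm was 59.5, 85.8 and 137 CPM after delayed and 41.3, 67.2 and 87.9 CPM after immediate repair. The value was 0.29 for Il1b without delayed 8 and 0.24 for Osm without delayed 4. Tnf was at 0.24 (SE 0.26), Il1a at 0.34 (SE 0.28) and Il6 at 0.28 (SE 0.34) on the log2 scale. Without delayed 1 the value was 0.08 for Tnf and 0.15 for Il1a, and without delayed 8 it was 0.09 for Il6. Csf1, the growth factor that keeps macrophages alive, was at 0.65 (SE 0.33) and at 0.31 without delayed 8, where it was 40.6 CPM. Nos2, the inducible nitric oxide synthase, ran from 0.181 to 27.4 CPM after delayed and from 0 to 75.2 CPM after immediate repair.

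Of 20 chemokines, 13 were higher and 7 lower. Ccl5, which was lower, was the only one at an unadjusted p under 0.05 (1.01% of all genes). Cxcl2, a neutrophil chemokine, was at 0.20 (SE 0.16) on the log2 scale and Ccl8, a monocyte chemokine, at -0.33 (SE 0.21). With 1 animal left out, Cxcl2 ran from 0.09, without delayed 1, to 0.31, without delayed 4, and Ccl8 from -0.51, without delayed 2, to -0.22. Of 17 genes of IL-10 signaling, the pathway that holds back macrophage inflammation, 8 were higher and 9 lower, with a median of -0.02 (0.04 without immediate 3) and none at an unadjusted p under 0.05. The receptor chain Il10rb was 389, 458 and 518 CPM after delayed and 394, 412 and 475 CPM after immediate repair, a log2 fold change of 0.09 (SE 0.08), and 0.06 without delayed 3. The chain Il10ra had 0.22 (SE 0.22) with 172 CPM in delayed 4, and -0.02 without that animal.

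All 6 Fc gamma receptors, which bind IgG, had fitted values above 0 (median 0.08, but -0.01 without delayed 4), from 0.02 for Fcgr2b to 0.38 for Fcgr4, and none was at an unadjusted p under 0.05. Fcgr4 ran from 56.0 to 178 CPM after delayed and from 64.1 to 102 CPM after immediate repair. Fcgr1 had a log2 fold change of 0.30 (SE 0.19), with medians of 129 CPM in both groups. Without delayed 3 the value was 0.20 for Fcgr4 and 0.12 for Fcgr1. Of 20 pattern recognition receptors and adaptors, 11 were higher and 9 lower, none at an unadjusted p under 0.05, with Clec7a, the β-glucan receptor Dectin-1, at 0.39 (SE 0.21; 0.23 without delayed 4) and Tlr7, a receptor for single-stranded RNA, at 0.32 (SE 0.18). Of 28 efferocytosis and scavenger receptors, 17 were higher and 11 lower, none at an unadjusted p under 0.05. Cd163, the hemoglobin scavenger receptor, was lowest at -1.02 (SE 0.59), with 1.76, 4.81 and 15.6 CPM after delayed and 1.65, 13.5 and 37.6 CPM after immediate repair, and -0.65 without immediate 8. The immediate animals reached higher, but the lowest animals of both groups were at the same level.

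Of 52 lysosomal genes, 39 were higher after delayed repair, with a median of 0.05 (0.03 without immediate 7). At an unadjusted p under 0.05 were 2, both higher, against 1.2% of all genes. Gaa, the acid glucosidase that degrades glycogen, was 85.2, 98.7 and 121 CPM after delayed and 69.0, 88.3 and 98.9 CPM after immediate repair, a log2 fold change of 0.24 (SE 0.10), and 6 of 7 delayed animals were above the immediate mean. Of 30 genes of lipid handling and foam cells, 17 were higher and 13 lower, and their folds ran only from -0.22 to 0.16. Of 19 genes of cholesterol synthesis, 8 were higher and 11 lower, and none was at an unadjusted p under 0.05.

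Of 18 alternative activation genes, 13 were lower after delayed repair (median -0.09, but 0.08 without immediate 8), none at an unadjusted p under 0.05, and Mrc1, the mannose receptor CD206, was at -0.18 (SE 0.17) on the log2 scale and at -0.08 without delayed 1. Of 19 monocyte genes, 10 were higher and 9 lower, with Plac8 and Ms4a4c at an unadjusted p under 0.05 (1.2% of all genes), Ms4a4c at 0.69 (SE 0.32) with 397 CPM in delayed 3, and 0.21 without that animal. Of 19 genes of tissue residency, 13 were lower and 6 higher, with Cx3cr1 alone at an unadjusted p under 0.05, and higher (1.2% of all genes).

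Of 22 growth and neurotrophic factors tested, 17 were higher after delayed repair (median 0.11, and 0.06 without delayed 7) and 3 of these were at an unadjusted p under 0.05, against 1.2% of all genes. They were Osm and Tgfb1, given above, and Areg, the EGF receptor ligand amphiregulin. Areg was 13.6, 18.2 and 28.8 CPM after delayed and 6.93, 9.31 and 22.2 CPM after immediate repair, a log2 fold change of 0.65 (SE 0.25), and every delayed animal was above the immediate mean. Of 27 TGF-β response genes, 21 were higher (median 0.13, and 0.06 without delayed 4), with Ski and Tgfb1 at an unadjusted p under 0.05 (1.2% of all genes). Of 32 genes of matrix remodeling, 23 were higher, none at an unadjusted p under 0.05, and Mmp9, a gelatinase, had -0.77 (SE 0.47) with its highest values in delayed 1 and immediate 1, and -0.36 without immediate 1.

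Of 35 genes of hypoxia and glycolysis, 19 were higher and 16 lower, with a median of 0.01 (-0.09 without delayed 8). Vhl, the factor that marks HIF proteins for degradation, was alone at an unadjusted p under 0.05, and lower (1.01% of all genes). It was at -0.33 (SE 0.15), with 20.5, 26.2 and 30 CPM after delayed and 22.5, 33 and 44 CPM after immediate repair. Of 27 genes of the oxidative stress and iron response, 18 were lower, and Keap1, which holds NRF2 inactive, had -0.33 (SE 0.13). Of 26 cell cycle genes, 17 were higher and 9 lower, with Mki67, a marker of dividing cells, at -0.42 (SE 0.21) and Mcm2, a subunit of the replication helicase, at 0.50 (SE 0.24; 0.30 without delayed 4). Of 44 genes of the immediate early and cell isolation response, 27 were higher, but the 3 at an unadjusted p under 0.05 were lower (1.01% of all genes): the transcription factor Cebpd at -0.40 (SE 0.16) and the chaperones Dnaja1 at -0.30 (SE 0.12) and Hspd1 at -0.22 (SE 0.09).

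Of 78 cytoplasmic ribosomal protein genes, 71 were lower after delayed repair (69 to 72 over the scalings tried), with a median of -0.05 and none at an unadjusted p under 0.05. Of 74 oxidative phosphorylation genes, 55 were lower (55 to 60 over the scalings), with a median of -0.05 and none at an unadjusted p under 0.05. Genes of one list share their regulation and libraries, so these shares do not count independent events. Without immediate 8 the median was 0.03 for the ribosomal protein list and 0.02 for the oxidative phosphorylation list.

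**Figure D3:**
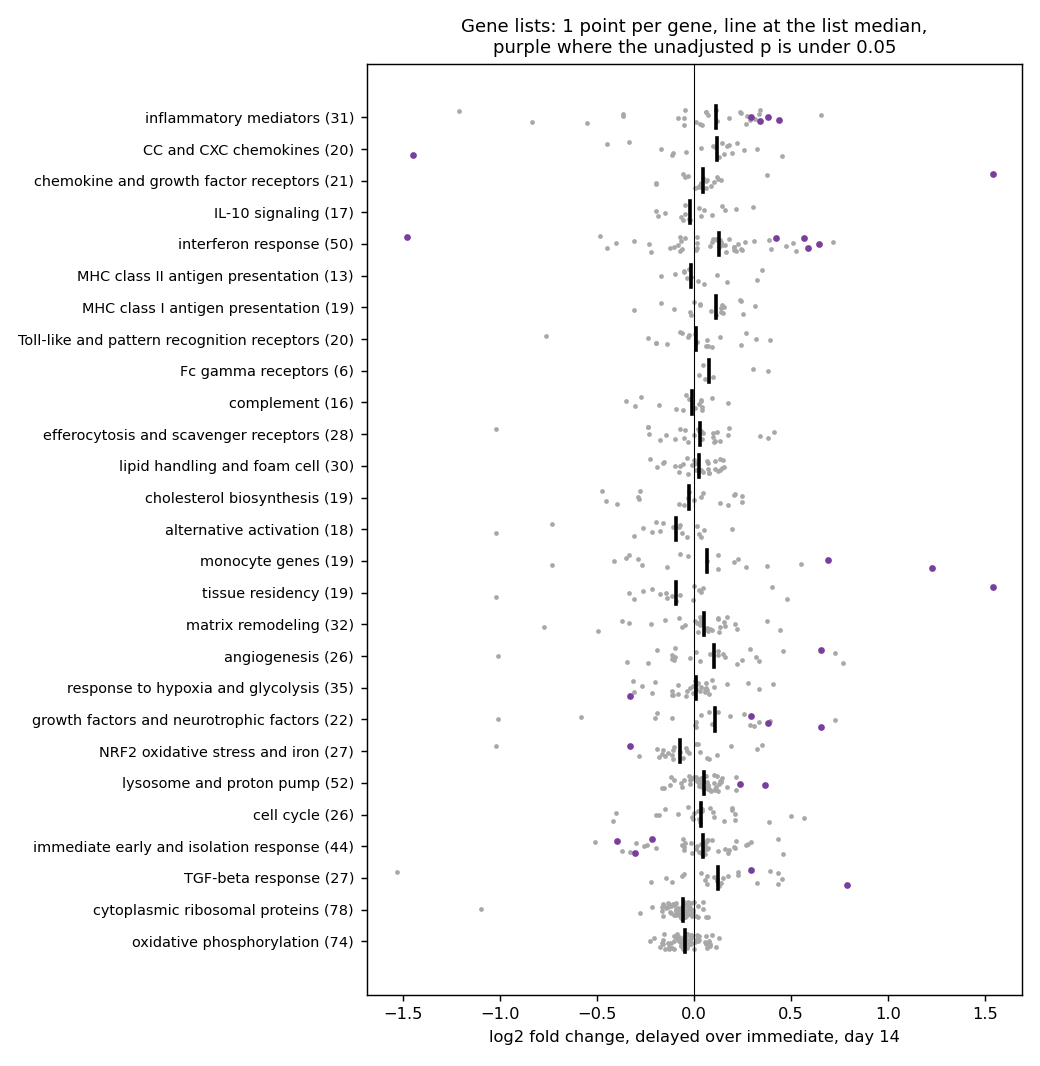
Fitted log2 fold changes of the tested members of 27 gene lists, with 1 point per gene, the number of members in brackets, a vertical line at the list median and purple for an unadjusted p under 0.05. The list medians lie between -0.09 and 0.13, and the single genes farthest out are Cx3cr1 at 1.54 and Col1a1 at -1.53, the latter turning to 0.54 without immediate 7.

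Libraries of one repair group were no more alike than libraries of different groups. The correlation of log2 levels between libraries of the same group ran from 0.891 to 0.973 (median 0.948, 49 pairs) and between groups from 0.888 to 0.970 (median 0.951, 56 pairs), as a description across genes. The first principal component of the tested genes held 28.7% of the variance. Over the first 4 components, 2-sided exact permutation tests of the difference between repair groups gave p from 0.385 to 0.812, and 0.812 for each after Benjamini-Hochberg adjustment.

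The genes with the largest weights on the first component include genes of macrophage activation and, with the largest weight at its high end, the histocompatibility pseudogene H2-Ea-ps, followed further down by H2-DMb2, Gm11127, H2-Q1 and H2-Q10. At its low end stood immediate 1, delayed 1, immediate 5 and immediate 6, with high levels of Saa3, an acute phase protein, Serpinb2, a protease inhibitor induced by Toll-like receptors, Ptges, the prostaglandin E synthase, Fpr1, the formyl peptide receptor, and Irg1, which makes itaconate. Saa3 was 1373 CPM in immediate 1, 740 CPM in delayed 1, 504 CPM in immediate 6 and 438 CPM in immediate 5, against 3.98 CPM in delayed 4. At the high end stood delayed 4, immediate 8, immediate 4 and immediate 7, with high levels of Mef2c, a transcription factor, and low levels of the former genes. Mef2c was 89.7 CPM in delayed 4, 45.2 CPM in immediate 8, 42.3 CPM in immediate 4 and 36.7 CPM in immediate 7, against 2.63 CPM in delayed 1. Retnla and Mgl2, markers of alternative activation, ran from 2.60 to 1550 CPM and from 0.149 to 73.2 CPM over the animals. Both ends held animals of both groups.

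**Figure D4:**
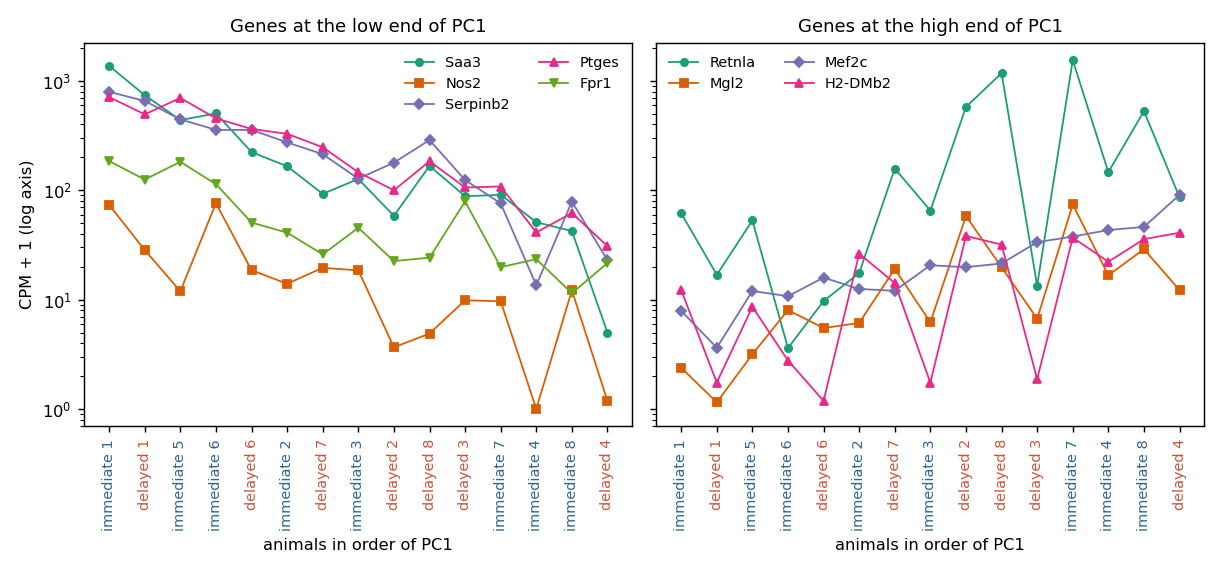
Levels of 9 genes on a log axis of CPM + 1 in the 15 animals, ordered along the first principal component, with delayed animals named in red and immediate animals in blue. Saa3 passes from 1373 CPM in immediate 1 to 3.98 CPM in delayed 4, and animals of both groups stand at each end of the axis.

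Some genes stood at separate levels in different mice and alike in another cell type of the same mouse. H2-Ea-ps, H2-Q2, H2-Q10 and Gm11127, all in the histocompatibility region of chromosome 17, were each under 2 CPM in delayed 1, delayed 3, delayed 6 and immediate 3, and the Schwann cell libraries of these 4 mice were each under 5 CPM. H2-Ea-ps, for example, was at most 0.509 CPM in the macrophages of these 4 mice and 404 to 1276 CPM in the other mice apart from immediate 6, where it was 24.2 CPM and the other 3 genes were 0.827 to 6.08 CPM. Cap1, an actin regulator on chromosome 4, was 253 CPM in delayed 1, 245 CPM in immediate 1 and 234 CPM in immediate 5 against 37.6 to 59.2 CPM in the other 12, and the Schwann cell libraries of the same 3 mice had 182 to 242 CPM against 16.8 to 53.8 CPM. At day 5 the means of Cap1 were 203 CPM after delayed and 43.7 CPM after immediate repair, and DESeq2 called its repair by day interaction (adjusted p = 0.0448, against 0.275 with edgeR). Whether these patterns bear on other genes was not tested.

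No interferon response gene was called for repair over all animals, with 35 of 50 higher and 15 lower after delayed repair (31 and 19 with scaling by library size alone), a median of 0.13 (-0.01 without delayed 3), and 5 at an unadjusted p under 0.05 against 2.21% of all genes. These were Irf7, a transcription factor of the interferon response, at 0.59 (SE 0.25), Phf11d at 0.65 (SE 0.30), Phf11b at 0.57 (SE 0.26), Ddx58, the RNA sensor RIG-I, at 0.42 (SE 0.20), and Gbp4, a guanylate-binding GTPase, at -1.48 (SE 0.58) with 40.1 CPM in immediate 6. Without delayed 3 the value was 0.32 for Irf7 and 0.25 for Phf11d, and without immediate 6 it was -0.87 for Gbp4. Ifng itself had 0 counts in each library, which allows up to 0.190 CPM in the smallest one. Read by sex, the same genes went opposite ways, and this pattern was found after the values were seen. In males 45 of 48 tested were higher after delayed repair, with a median of 0.58 and 20 at an unadjusted p under 0.05, each higher (1.23% of all genes). In females 43 of 49 were lower, with a median of -0.33 and 11 at that p, each lower (1.37% of all genes).

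The test of the difference itself gave 0 genes (0%) at an adjusted p under 0.05 with edgeR over 8589 genes. The interaction, coded as the effect of delay in females minus that in males, was at an unadjusted p under 0.05 for 285 genes (3.32%), 146 of them negative (1.7%); with scaling by library size alone there were 184 positive and 102 negative, while 49 of the 50 interferon response genes were negative and 20 of the 50 were at that p. Of the 50 interferon response genes 49 were negative, 21 (42%) were at an unadjusted p under 0.05 and each of these was negative, and the median was -0.91 against -0.02 over all genes. In no other list were more than 4 members at an unadjusted p under 0.05. By sign, 70 of 78 cytoplasmic ribosomal protein genes and 63 of 74 oxidative phosphorylation genes were negative too. Of these lists 1 and 0 genes were at that p, against 3.32% of all genes. DESeq2 called 7 genes of the interaction, Rsad2, Cxcl10, Ifit1, Usp18, Ifit3, I830012O16Rik and 9330151L19Rik, whose edgeR adjusted p-values were 0.972 or higher. Leaving out 1 animal at a time, 16 to 30 of the 50 genes were at an unadjusted p under 0.05 and 46 to 50 were negative, and without immediate 4 and immediate 7 there were 21. With the replicate number as a block, 23 of the 50 were at that p and 48 were negative, against 831 of all 8589 genes at that p.

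The levels show where the difference lies. Rsad2, which encodes the antiviral enzyme viperin, was 373, 199, 308 and 209 CPM in the delayed males and 148, 122, 137 and 65.5 CPM in the immediate males, but 138, 180 and 125 CPM in the delayed females and 366, 261, 141 and 235 CPM in the immediate females. Each delayed male was above each immediate male, whereas the females overlapped with the immediate animals higher. The interaction of Rsad2 was -1.97 (SE 0.44). Ifit1, which binds viral RNA lacking cap methylation, was 125, 86.1, 132 and 60.3 CPM in the delayed males, 56.9, 47.2, 58.9 and 18.2 CPM in the immediate males, 51.4, 92.9 and 39.3 CPM in the delayed females and 255, 163, 62.9 and 125 CPM in the immediate females. Its males did not overlap and its females did, and the interaction was -2.46 (SE 0.63). Usp18, which removes ISG15 from proteins and damps interferon signaling, was 71.4, 48.0, 140 and 61.1 CPM in the delayed males and 31.4, 32.1, 34.3 and 23.7 CPM in the immediate males. In the females Usp18 was 62.7, 61.5 and 47.1 CPM after delayed and 67.9, 78.5, 63.6 and 58.6 CPM after immediate repair. Its males were apart, its females overlapped, and the interaction was -1.63 (SE 0.38).

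Ifit3, an adaptor of the same antiviral family, was 73.1, 41.5, 122 and 83.1 CPM in the delayed males and 31.6, 19.6, 30.1 and 26.6 CPM in the immediate males. In the females it was 30.0, 89.5 and 30.3 CPM after delayed and 108, 79.3, 62.2 and 52.9 CPM after immediate repair, and the interaction was -2.16 (SE 0.55). Cxcl10, the interferon-induced chemokine for T cells, was 48.3, 43.1, 61.7 and 31.9 CPM in the delayed males, 35.7, 26.8, 32.7 and 23.7 CPM in the immediate males, 21.7, 51.2 and 26.0 CPM in the delayed females and 73.4, 103, 48.9 and 98.8 CPM in the immediate females. Both sexes overlapped, and the interaction of Cxcl10 was -1.93 (SE 0.43). Isg15, the ubiquitin-like protein that is attached to other proteins, was 65.0, 54.1, 111 and 63.1 CPM in the delayed males, 61.7, 50.8, 49.9 and 58.1 CPM in the immediate males, 50.9, 79.3 and 61.3 CPM in the delayed females and 92.3, 92.9, 74.5 and 99.9 CPM in the immediate females, with an interaction of -0.91 (SE 0.30). Within males 5 of the 50 interferon response genes had groups that did not overlap (1.49% of all genes) and within females 4 (4.52% of all genes).

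**Figure D5:**
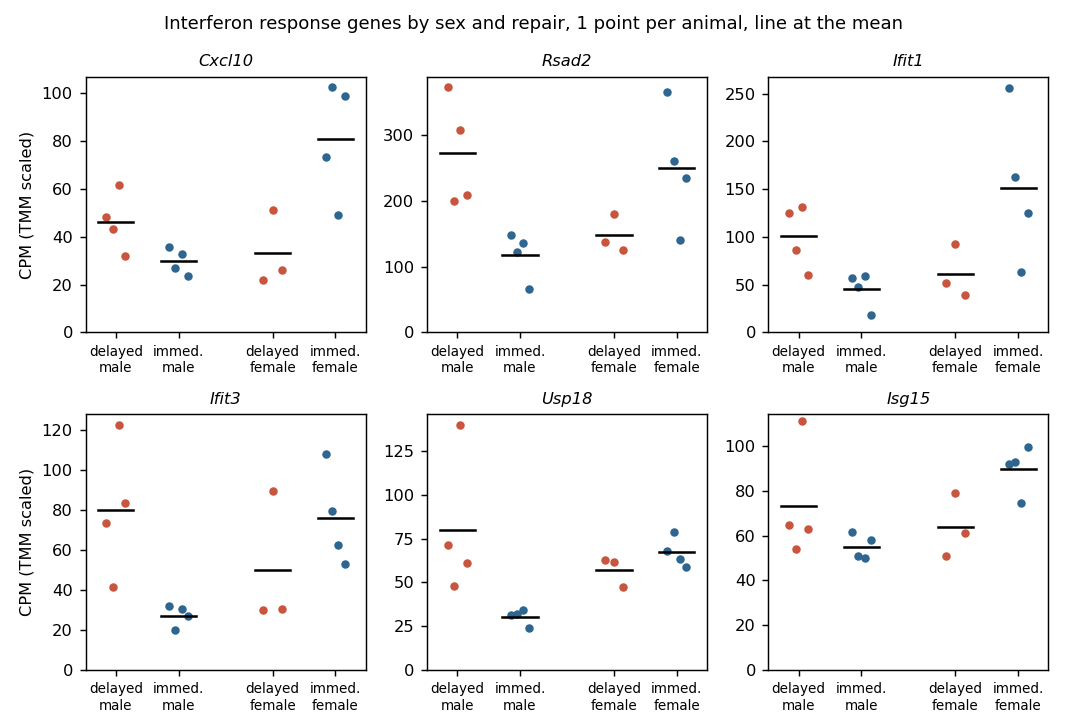
Levels of 6 interferon response genes in CPM on linear axes from 0, with 1 point per animal and a line at the mean, in 4 delayed males, 4 immediate males, 3 delayed females and 4 immediate females. In males the delayed mean is the higher one in each panel and in females the immediate mean is, and the delayed males lie wholly above the immediate males for Rsad2, Ifit1, Ifit3 and Usp18.

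A few animals carried much of the interferon level. The mean log2 level over the 50 genes was 6.75 in delayed 3, a male, and 6.60 in immediate 6, a female, and from 5.47 to 6.09 in the other 13 animals. Delayed 3 also had the highest level of Plac8 and Ms4a4c, and immediate 6 that of Ccl5 and Gbp4.

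The promoters of 5 of these genes are printed to show a sequence that many interferon response genes share, the interferon-stimulated response element, searched here as GAAA, any 2 bases and GAAA or, for the other strand, TTTC, any 2 bases and TTTC. Each line gives the 250 bases before the annotated start, 5′ to 3′ along the gene's strand, from RefSeq on GRCm38.p6, with the matches in capitals (adjoining matches may overlap). They lie at chr5:92348890-92349139 on the minus strand (Cxcl10), chr12:26456453-26456702 on the minus strand (Rsad2), chr19:34640639-34640888 on the plus strand (Ifit1), chr19:34583279-34583528 on the plus strand (Ifit3) and chr4:156200819-156201068 on the minus strand (Isg15).
Cxcl10: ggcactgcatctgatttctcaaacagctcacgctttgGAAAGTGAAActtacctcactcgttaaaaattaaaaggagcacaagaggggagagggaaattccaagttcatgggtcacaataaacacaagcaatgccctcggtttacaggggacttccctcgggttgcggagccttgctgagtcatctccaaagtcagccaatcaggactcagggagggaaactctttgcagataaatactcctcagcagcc
Rsad2: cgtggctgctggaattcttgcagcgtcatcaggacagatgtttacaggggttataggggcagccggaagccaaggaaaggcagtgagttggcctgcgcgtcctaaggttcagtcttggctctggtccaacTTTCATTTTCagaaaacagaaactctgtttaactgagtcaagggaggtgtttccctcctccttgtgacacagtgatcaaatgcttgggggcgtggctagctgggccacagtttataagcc
Ifit1: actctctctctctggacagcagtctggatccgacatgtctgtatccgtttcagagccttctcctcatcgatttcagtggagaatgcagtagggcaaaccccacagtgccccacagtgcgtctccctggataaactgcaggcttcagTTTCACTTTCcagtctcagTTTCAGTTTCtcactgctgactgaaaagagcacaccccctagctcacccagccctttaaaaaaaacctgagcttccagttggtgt
Ifit3: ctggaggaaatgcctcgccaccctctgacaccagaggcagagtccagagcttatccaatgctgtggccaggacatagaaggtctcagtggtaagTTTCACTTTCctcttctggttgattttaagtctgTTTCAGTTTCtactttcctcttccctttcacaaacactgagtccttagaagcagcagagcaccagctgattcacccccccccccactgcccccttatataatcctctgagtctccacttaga
Isg15: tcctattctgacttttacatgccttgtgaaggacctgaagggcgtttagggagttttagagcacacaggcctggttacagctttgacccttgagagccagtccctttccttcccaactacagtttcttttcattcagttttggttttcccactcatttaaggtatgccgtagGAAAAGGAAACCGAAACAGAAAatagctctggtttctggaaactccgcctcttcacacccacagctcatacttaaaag

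Such a match was present before the start of 936 of 27025 genes (3.46%) and of 227 of the 6552 tested genes with a promoter in the table (3.46%). Among the interferon response genes it was present in 21 of 38 with a promoter (55.3%). It was present in 7 of the 15 whose interaction with sex was at an unadjusted p under 0.05 (46.7%) and in 14 of the other 23 (60.9%). A match of letters is a description and not evidence of binding.

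At day 5, in other mice (5 females and 4 males after delayed repair, 4 and 4 after immediate repair), the interferon response genes lay the opposite way. Of 49 tested, 43 had a positive interaction, 11 were at an unadjusted p under 0.05, each positive, and the median was 0.39, against 352 of 8409 genes (4.19%) at that p, 2.7% positive, and 0 at an adjusted p under 0.05 with edgeR. In a fit of repair, sex and day together, the difference between the interactions of the days, day 14 minus day 5, was negative for 49 of the 50 interferon response genes. It was at an unadjusted p under 0.05 for 30 of them (60%) each negative, against 303 of 8949 genes (3.39%), 2.32% negative, with a median of -1.17, and 0 genes passed the adjusted threshold, the smallest adjusted p being 0.175. Mice of a sex were not stated to share a litter or a day, and differences between such batches and sex cannot be told apart here.

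Within males edgeR called 0 of 7938 genes (0%), with 176 at an unadjusted p under 0.05 (2.22%), and DESeq2 called 6, namely Cadm1, Ifit3, Usp18, Fastkd5, Rsad2 and Pstpip1. Cadm1, an adhesion molecule of the immunoglobulin family, had the smallest edgeR adjusted p, 0.343. Within females edgeR called 0 of 7904 genes (0%), with 242 at an unadjusted p under 0.05 (3.06%), and DESeq2 called 4, namely Irf2bp2, Tesk1, Timp1 and Marcks.

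For sex itself, the genes that edgeR called were all on the sex chromosomes. With repair in the model, 4 of 8589 genes (0.0466%) passed an adjusted p under 0.05 with edgeR, Xist higher in females and Eif2s3y, Ddx3y and Uty, all on the Y chromosome, higher in males, and 264 genes (3.07%) had an unadjusted p under 0.05. Ddx3y, for example, was 120 to 159 CPM in males and 0 to 5.36 CPM in females. DESeq2 called 10, among them autosomal genes that edgeR did not call. Gdf3, a ligand of the TGF-β family, was 74.3 to 179 CPM in the females and 21.3 to 77.4 CPM in the males, a log2 fold change of 1.38 (SE 0.29) with an edgeR adjusted p of 0.281. Pgf, a VEGF family ligand, was 17.6 to 70.0 CPM in the females and 10.7 to 29.6 CPM in the males, a log2 fold change of 1.23 (SE 0.28), and Il6 was 12.1 to 28.1 CPM in the females and 4.12 to 17.1 CPM in the males, a log2 fold change of 1.02 (SE 0.24). For these genes the ranges of the sexes overlapped.

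The effect of delay at day 14 was also set against that at day 5. In a fit of the 32 macrophage libraries, 2 of 8949 genes (0.0223%) differed between the days at an adjusted p under 0.05 with edgeR, and 323 (3.61%) at an unadjusted p under 0.05. Heca, the homolog of the fly headcase gene, had means of 25.4 CPM after delayed and 22.2 CPM after immediate repair at day 14, and of 6.10 and 17.5 CPM at day 5, a difference between the effects of 1.72 on the log2 scale (SE 0.32, adjusted p = 0.0328). Osm had means of 83.9 and 64.5 CPM at day 14 and of 85.8 and 159 CPM at day 5, scaled over both days together, a difference of 1.27 (SE 0.24, adjusted p = 0.0328). After delayed repair Heca was thus near the immediate level at day 14 and under it at day 5, and Osm passed from a lower to a slightly higher mean. Neither was called with scaling by library size alone, where the adjusted p was 0.144 for Heca and 0.0950 for Osm, and leaving out 1 animal of day 14 at a time kept Heca in 3 of 15 fits and Osm in 6 of 15. In those 15 fits the difference was 1.62 to 1.83 for Heca and 1.13 to 1.35 for Osm, with an edgeR adjusted p up to 0.0937.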

How the data were processed

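The authors trimmed reads with cutadapt 1.8 and aligned them to mm10 with TopHat2 2.1.1, per the labels, and Cufflinks 2.2.1 and Cuffnorm are named in the submitters' processing notes. The deposited values are estimated counts per gene, of which 0.920% were more than 1e-09 from a whole number; these were rounded. Alignment used a first-strand library setting; the program that wrote the deposited counts is not given in the sources used here. Libraries came from SMART-Seq v4 amplified cDNA without molecular identifiers, so limits from counts cover counting error only.

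Genes at 5 CPM or more in 6 animals were tested with edgeR 4.0.16 in R 4.3.3 (TMM scaling, quasi-likelihood, Benjamini-Hochberg), without covariates, and SE is the log2 fold change over the square root of F. Interactions were fitted in the same way, with sex or day as terms; the sexes came from the labels. Levels are TMM-scaled CPM. Alternatives were DESeq2 1.42.0, limma 3.58.1 (voom with quality weights), other scalings and filters, sex or replicate number as terms and each animal left out; the interferon interaction counts, the fits over day and sex, the sex interaction with the replicate number as a block and the fit without immediate 4 and immediate 7 were chosen after seeing the data. Tests were tested on simulated data. No pair of the 105 pairs of libraries held equal counts. Distal stump libraries were not used.

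Named genes are, by rule, the 10 higher and 10 lower genes of smallest p, the 3 of smallest p and the most abundant of each list, sorting markers, genes the study names for macrophages, the most abundant and most variable genes, and those past the threshold of an interaction or of sex. Other genes, such as Col1a1, Nos2, Hdc, Arrdc3, Csf1, Cap1, the histocompatibility genes, the interferon genes read by sex and those along the first principal component, were chosen after their values were seen. The gene lists were written by hand, and they and the members compared were chosen with earlier results of these data known. Positions are from GENCODE on GRCm38 and promoters from RefSeq on GRCm38.p6. Some items are not reported here.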

Additional observations from a re-analysis of the deposited data

Results flagged for a closer look

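Within a group, 21 values stood apart from the other animals of their group by Dixon's gap test at its 95% level, out of 128 groups of 64 genes. The test was run on CPM without a log, and each of the 21 was the highest value of its group. Its rate by chance, about 1 in 20 groups, holds for normally distributed values, and CPM were not shown to be so. The genes share the same animals, so the values are not independent. Several of the genes, among them Col1a1, Hdc, Arrdc3, Csf1, Nos2 and Saa3, were chosen after their values were seen, some for 1 extreme animal, so the number of values cannot be read against that rate. After delayed repair, delayed 3 stood apart in Plac8 (136 CPM), Irf7 (1418 CPM), Phf11d (140 CPM), Ms4a4c (397 CPM) and Usp18 (140 CPM). Delayed 8 stood apart in Hdc (28.9 CPM), Il1b (1211 CPM) and Csf1 (40.6 CPM), delayed 4 in Arrdc3 (216 CPM) and Il10ra (172 CPM), and delayed 1 in Mmp9 (35.9 CPM) and Saa3 (740 CPM). After immediate repair, immediate 6 stood apart in Ccl5 (94.0 CPM), Gbp4 (40.1 CPM) and Irf7 (818 CPM), and immediate 1 in Il1b (882 CPM), Mmp9 (60.8 CPM) and Saa3 (1373 CPM). Immediate 7 stood apart in Col1a1 (318 CPM) and Cx3cr1 (15.1 CPM), and immediate 8 in Cxcl2 (8969 CPM).

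The effect of delay differed between day 14 and day 5 for Heca by 1.72 and for Osm by 1.27 on the log2 scale, by the interaction test of edgeR. With 1 animal of day 14 left out, Heca stayed called in 3 of 15 fits and Osm in 6 of 15. Neither was called with scaling by library size alone.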

How the results depend on the processing

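For delayed against immediate repair at day 14 the count of genes at an adjusted p under 0.05 was 0 under each alternative tried, including each animal left out in turn. At an unadjusted p under 0.05 it was 190, from 159 to 266 with the other scalings, filters and models, 149 to 280 with 1 animal left out, and 1088 with no filter, where 16555 genes were tested. DESeq2 called 9 genes for repair by day, 7 for repair by sex, 6 within males, 4 within females and 10 for sex, and scaling by library size alone called 0 for repair by day, with a median over all genes of -0.12. At an unadjusted p under 0.05 these tests gave 323, 285, 176, 242 and 264 genes. Leaving out 1 animal gave 0 to 3 genes for repair by day and 4 to 5 for sex. The direction turned for Col1a1 with DESeq2 (0.53) and without immediate 4 and immediate 7 (0.64), and with 1 animal left out it ran from -2.01 to 0.54, and Il10ra from -0.015 to 0.30; the former turned without immediate 7 and the latter without delayed 4. The median turned with 1 animal left out for 17 of the 27 lists, among them the interferon response (-0.011 without delayed 3), Fc gamma receptors (-0.012 without delayed 4), alternative activation, ribosomal proteins and oxidative phosphorylation (0.085, 0.025 and 0.015 without immediate 8), IL-10 signaling (0.039 without immediate 3) and monocyte genes (-0.15 without delayed 4). The median SD was 0.248 with a pseudocount of 5. With the replicate number as a block, 0 genes passed the adjusted threshold and 266 were at an unadjusted p under 0.05. Same-numbered animals correlated above 0.1 in 6 of 7 pairs (median 0.26, lowest 0.037) and best with each other in 5 of 7. These are not the correlations of log2 levels given above, which were 0.888 or higher. In both groups the males held numbers 1 to 4 and the females higher numbers, so same-numbered animals also shared sex. No label says that a number marks a shared batch, and whether it does was not settled. With the same block the repair by sex interaction gave 0 genes at an adjusted p under 0.05, the smallest being 0.338, and 831 against 285 at an unadjusted p under 0.05. The causes of these changes were not tested. With 3 or 4 mice in each group of one sex, the median SE of the interaction was 0.32.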
